A study of Rattus norvegicus with 6 samples.

Results

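miR-103 and miR-107 are a pair of near-identical microRNAs that animals carry inside introns of the pantothenate kinase genes, which encode the first enzyme of coenzyme A synthesis. They were taken from a table of rat microRNAs as every entry whose name begins rno-miR-103- or rno-miR-107-, which gave 5 of 764 entries: rno-miR-103-3p, rno-miR-107-3p, rno-miR-107-5p, rno-miR-103-1-5p and rno-miR-103-2-5p. Of these, 3 had a value above 0 in some library and could be tested, and 2, the 5p arms of miR-103, were at 0 in all 6 libraries. A microRNA hairpin is cut into a 5p and a 3p arm, and the arm that is kept guides Argonaute to messenger RNAs that pair with its seed, bases 2 to 8. miR-103 and miR-107 are known as regulators of insulin sensitivity in liver and fat, acting in part through caveolin-1, and as regulators of Dicer, and miR-103 is often used as a reference to scale PCR measurements of other microRNAs.

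Small RNA was sequenced from 6 libraries labelled testicle of male Sprague Dawley rats, 3 HO-1 knockout (HO-1-/-) and 3 wild type (WT). HO-1, heme oxygenase 1, is an enzyme that cells induce under stress to degrade heme. In both genotypes the left testis had been rotated by 720° for 2 h and then released for 3 days, so every library followed ischemia and reperfusion, and no uninjured library was analysed here. Whether the libraries are from different animals is not stated in the labels, and the p-values then cover only the spread among these libraries, which may be technical. The labels also do not give the age of the rats, how the HO-1 allele was made or whether animals were pooled.

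Values are reads per 1000000 assigned reads (RPM). Library totals recovered from the size of 1 read were 8300536 to 10042673 reads. miR-122-5p, a hepatocyte microRNA, held 32.7% to 36.6% of the reads in wild type libraries, against 40.3% to 46.4% in knockout libraries. The other 3 hepatocyte entries on the marker list had lower mean RPM in the knockout. The log2 change was -0.10 for miR-122-3p, -0.29 for miR-192-5p and -0.48 for miR-194-5p. With TMM scaling of the libraries these changes were 0.11, -0.07 and -0.27, beside 0.52 for miR-122-5p. Of the 3, miR-194-5p alone was called (adjusted p = 0.038 in limma, 0.20 with TMM scaling). Markers of testis were scarce: 6 germ cell microRNAs (miR-34 and miR-449) summed to at most 52.8 RPM in a wild type library and at most 31.9 RPM in a knockout library, the gonadal miR-202-5p stood between 0.71 and 2.22 RPM, miR-202-3p was at 0, and 7 of 15 microRNAs of the X-linked testis cluster were at 0 in every library. The values below therefore come from libraries whose composition goes against the labelled tissue. Small RNA sequencing does not measure HO-1 messenger RNA, and the genotype labels were not checked against it.

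The 2 mature 3p sequences, shown because a single base separates them, are given here 5′ to 3′ from RefSeq (GRCr8) with the seed in capitals:
miR-103-3p: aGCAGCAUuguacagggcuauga
miR-107-3p: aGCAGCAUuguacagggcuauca
Both are 23 bases long, share the first 21 bases and differ by the substitution G22C (the base of miR-103-3p, the position counted from 1 at the 5′ end, then the base of miR-107-3p). Of 689 table entries with a RefSeq mature sequence, these 2 were the ones with the seed GCAGCAU. A read that ends before base 22 matches both, and the sources used here do not state how such reads were assigned, so the values depend on that assignment.

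The 3 hairpins are shown because they place the pair in 3 host genes. The 3p arm is in capitals:
Mir103a1: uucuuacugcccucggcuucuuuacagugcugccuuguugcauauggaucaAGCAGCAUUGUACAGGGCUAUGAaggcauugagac
Mir103a2: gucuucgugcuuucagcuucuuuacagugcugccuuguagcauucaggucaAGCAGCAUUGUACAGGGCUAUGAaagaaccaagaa
Mir107: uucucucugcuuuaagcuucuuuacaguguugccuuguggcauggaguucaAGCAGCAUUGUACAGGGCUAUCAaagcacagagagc
In the RefSeq gene table (GRCr8), Mir103a1 lies within the span of Pank3 on chromosome 10, Mir103a2 within Pank2 on chromosome 3 and Mir107 within Pank1 on chromosome 1, each on the strand of its host gene. That assembly is not the rn6 build named in the submitters' processing notes, so no coordinates are printed. Mir103a1 and Mir103a2 both hold the same mature miR-103-3p, in bases 52 to 74 of each hairpin, so the value of miR-103-3p sums over both loci and cannot be split between Pank3 and Pank2.

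miR-103-3p was the more abundant paralog in every library. Wild type libraries 1 to 3 held rno-miR-103-3p at 1587, 1313 and 1397 RPM, and knockout libraries 1 to 3 at 942, 1305 and 1240 RPM. The genotypes did not overlap, but the highest knockout library and the lowest wild type library differed by less than the counting error of either, with 95% Poisson intervals of 1283 to 1328 RPM and 1289 to 1336 RPM. The means were 1432 ± 140 RPM in wild type libraries, against 1162 ± 194 RPM in knockout libraries (SD, n = 3), 0.812 times the wild type level. The log2 change was -0.31 (SE 0.15), with a limma adjusted p of 0.29 over all 570 tested microRNAs.

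Wild type libraries 1 to 3 held rno-miR-107-3p at 270, 203 and 217 RPM, and knockout libraries 1 to 3 at 207, 337 and 287 RPM. Knockout libraries 2 and 3 were above every wild type library, and knockout library 1 lay among the wild type values. The means were 230 ± 35 RPM in wild type libraries, against 277 ± 65 RPM in knockout libraries (SD, n = 3), 1.20 times the wild type level. Its log2 change was 0.25 (SE 0.20), with a limma adjusted p of 0.51.

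**Figure D1:**
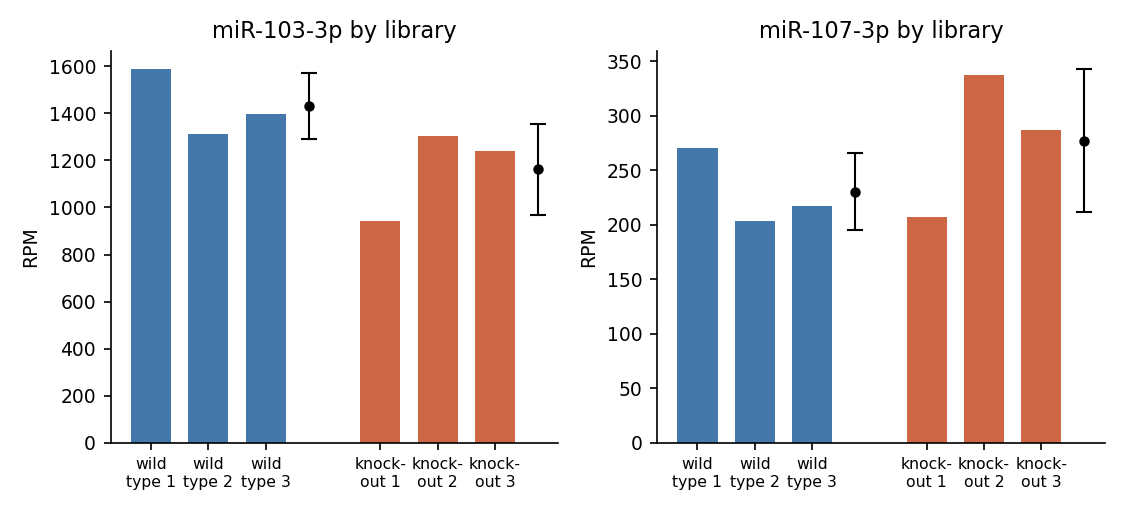
RPM of miR-103-3p (left) and miR-107-3p (right) in each library, as bars, with the group mean ± SD (n = 3) as a black point beside each group. miR-103-3p is lower in each knockout library than in each wild type library, with 1305 against 1313 RPM at the closest, while miR-107-3p overlaps between genotypes.

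None of the 3 tested entries passed limma's test (0 of 3 with an adjusted p below 0.05, and 0 of 3 with an unadjusted p below 0.05), where 6.32% of all 570 tested microRNAs did, 5.61% as lower and 0.702% as higher in the knockout. Of the 3, miR-103-3p alone had knockout values all below the wild type values, which held for 21.6% of the 570. When the reads themselves were recovered and counted, edgeR's quasi-likelihood test called 0 of 3 (1 of 3 with an unadjusted p below 0.05), at a background of 10.7% of the 570. DESeq2 called 1 of the 2 that it gave an adjusted p, miR-107-3p, at a background of 20.6% of the 349 microRNAs that it gave one. In the authors' deposited table, miR-107-3p has a log2 fold change of 0.267 with a p-value of 0.00998 and miR-103-3p one of -0.301 with a p-value of 0.543. The header reads only P-value, so the test, its scaling and any adjustment are not known here. Whether those p-values test the fold changes beside them is likewise not known.

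The direction of a change in RPM is relative to the library total, which here is set in large part by miR-122-5p. Over the 218 microRNAs of at least 10 RPM the median log2 change was -0.29, and miR-103-3p, at -0.31, lay next to that median, above 46.3% of them. miR-107-3p, at 0.25, lay above 87.6% of them. TMM scaling, which aligns the bulk of the microRNAs, moved the median to -0.08 and gave log2 changes of -0.10 (SE 0.10, limma adjusted p = 0.66) for miR-103-3p and 0.46 (SE 0.14, limma adjusted p = 0.087) for miR-107-3p.

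With TMM scaling the pattern of overlap turned round. miR-107-3p then stood at 223, 191 and 224 scaled RPM in wild type libraries, against 244, 339 and 302 in knockout libraries, with no overlap, as for 10.4% of the 570 microRNAs in that direction. miR-103-3p stood at 1309, 1237 and 1437 scaled RPM in wild type libraries, against 1111, 1313 and 1307 in knockout libraries, with overlap. With miR-122-5p left out of the totals, both paralogs overlapped between genotypes.

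On the recovered reads, scaled by each tool in its own way, miR-107-3p had a log2 change of 0.47 in edgeR (adjusted p = 0.0502) and 0.50 in DESeq2 (SE 0.16, adjusted p = 0.014), and miR-103-3p had -0.09 (edgeR adjusted p = 0.67) and -0.07 (DESeq2 adjusted p = 0.75). The DESeq2 call of miR-107-3p was lost without knockout library 2 (DESeq2 adjusted p = 0.19) and without knockout library 3 (0.10), and held in the other 4 fits that left out 1 library. In limma, leaving out knockout library 1 moved the log2 change of miR-103-3p to -0.17 and that of miR-107-3p to 0.44, and leaving out knockout library 2 or wild type library 2 moved that of miR-107-3p to 0.09 or 0.16.

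**Figure D2:**
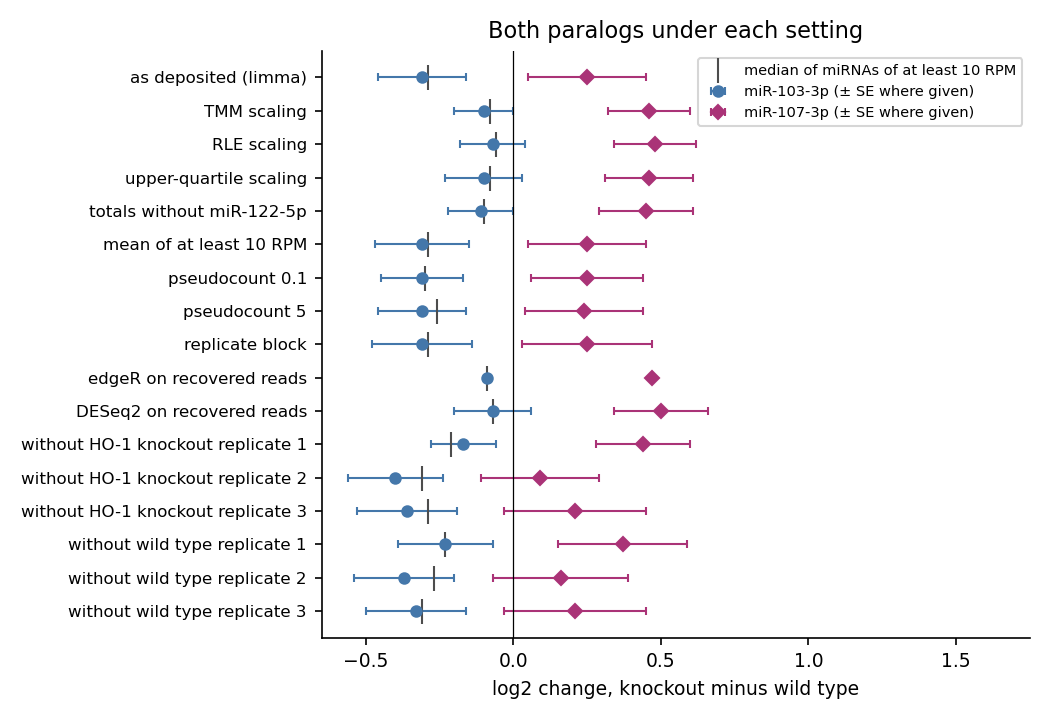
Log2 change, knockout minus wild type, of miR-103-3p (circles) and miR-107-3p (diamonds) under each setting, with SE where the tool gives one, beside the median of the microRNAs of at least 10 RPM (ticks). miR-103-3p stays near the median in each setting, from -0.40 to -0.07, and miR-107-3p stays above it, from 0.09 to 0.50.

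The balance between the paralogs does not depend on the scaling, since both are measured in the same library. There were 5.88, 6.46 and 6.43 reads of miR-103-3p for each read of miR-107-3p in wild type libraries 1 to 3, and 4.55, 3.88 and 4.32 in knockout libraries 1 to 3. Each knockout ratio was below each wild type ratio. The mean ratio was 6.26 ± 0.33 in wild type libraries, against 4.25 ± 0.34 in knockout libraries (SD, n = 3). On the log2 scale the ratio went from 2.64 ± 0.08 to 2.08 ± 0.12, a difference of -0.56. The exact permutation test, two-sided, gave p = 0.1, which is as low as 3 against 3 libraries can go, and 0.3 after Benjamini-Hochberg adjustment over the 3 exact tests made here. The difference is larger than the spread within either genotype.

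As a share of the pair, miR-107-3p made up 14.5%, 13.4% and 13.5% of the reads in wild type libraries, against 18.0%, 20.5% and 18.8% in knockout libraries. These shares rest on 9539 to 18645 reads per library, and the exact (Clopper-Pearson) 95% intervals in the knockout began at 17.3% or higher, above the upper bound of each wild type library. The intervals cover counting error only, since PCR copies of 1 molecule cannot be told apart here. The mean share was 13.8% ± 0.64 in wild type libraries, against 19.1% ± 1.3 in knockout libraries (SD, n = 3). The difference in log2 ratio stayed between -0.61 and -0.50 when any single library was left out.

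**Figure D3:**
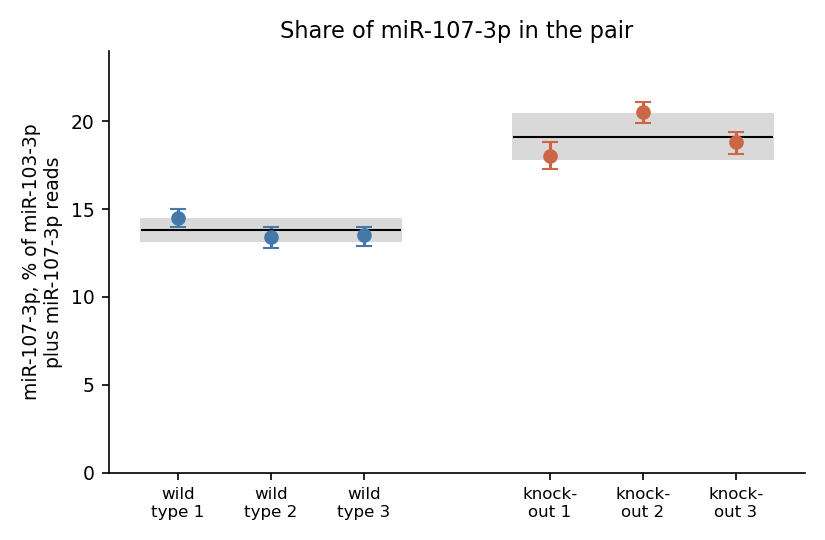
Percent of miR-103-3p plus miR-107-3p reads that were miR-107-3p in each library, with exact 95% binomial intervals, and the group mean (line) ± SD (grey band, n = 3). Wild type libraries lie between 13.4% and 14.5% and knockout libraries between 18.0% and 20.5%.

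The pair as a whole did not separate by genotype. Summed over the 5 entries it held 0.186%, 0.152% and 0.162% of the reads in wild type libraries 1 to 3 and 0.115%, 0.164% and 0.153% in knockout libraries 1 to 3. The means were 0.166% ± 0.018 and 0.144% ± 0.026 (SD, n = 3), and the exact two-sided permutation test gave p = 0.5 (0.5 adjusted over the 3 tests). Within each genotype the paralogs ordered the libraries alike: both were highest in library 1 and lowest in library 2 of the wild type, and highest in library 2 and lowest in library 1 of the knockout. The share of miR-122-5p moved with the genotypes in the same libraries, at 35.2% ± 2.2 and 43.4% ± 3.1 of the reads. The other 3 hepatocyte entries had negative changes in unscaled RPM, and that of miR-122-3p was positive with TMM scaling (0.11). The 4 had a median log2 change of -0.19 (0.02 with TMM scaling). The part of miR-122-5p in the levels of the pair was not tested beyond the totals without it, given above, and the paralog ratio is the same with or without it in the totals. In bulk libraries, fewer cells that hold a microRNA and less of it per cell cannot be told apart.

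The 5p arms were close to absent. The annotated 5p arm of Mir103a2, shown because it is the arm that was not detected, has its seed in capitals:
miR-103-2-5p: aGCUUCUUuacagugcu
This arm and miR-103-1-5p had 0 reads in all 6 libraries beside 72931 reads of miR-103-3p, a 5p share of 0.0041% at most if 0 is read as up to 3 reads, or 0.0051% by the exact 95% interval. miR-107-5p had 1 read in knockout library 1, 2 reads in knockout library 3 and 0 in the other 4 libraries, against 14225 reads of miR-107-3p. Its share of the reads of both arms was 0.0211%, with an exact (Clopper-Pearson) 95% interval of 0.0043% to 0.0616%.

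The 3 reads of miR-107-5p do not show a difference between genotypes. Its log2 change of 0.15 (SE 0.09) had a limma adjusted p of 0.41, and both groups were at or under the limit of 3 reads, 0.299 to 0.361 RPM per library, so no fold is given. For the 5p percent of the pair the exact two-sided permutation test gave p = 0.4 (0.5 adjusted). Among 82 precursors with both arms in the table and a major arm of at least 100 RPM, the minor arm made up a median of 1.11% by mean RPM, and 11 had a lower minor share than miR-107, among them miR-21, miR-26a and miR-29a. The 3p arm was the major one in 34 of the 82, as it is in miR-107. These precursors were counted after the values of the pair were seen.

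By level, miR-103-3p ranked 39 and miR-107-3p 90 of the 764 entries by mean RPM. miR-103-3p ranked between 37 and 40 in each library, and miR-107-3p between 75 and 101. The entries next to miR-103-3p were miR-199a-3p, miR-122-3p and miR-30b-5p above it and miR-152-3p, miR-27a-3p and miR-125a-5p below it. Those next to miR-107-3p were let-7d-3p, miR-450a-5p and miR-140-5p above it and miR-328a-3p, miR-505-3p and miR-221-3p below it. The range over libraries of every one of these neighbours overlapped that of its member, so the order among them is not resolved. The paralogs themselves did not overlap, with 942 RPM the lowest value of miR-103-3p and 337 RPM the highest of miR-107-3p.

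Reads of 7820 to 15935 for miR-103-3p give a counting error of 0.8% to 1.1%, and its coefficient of variation was 9.8% in wild type libraries, against 16.7% in knockout libraries. For miR-107-3p, 1719 to 3304 reads give 1.7% to 2.4%, beside 15.3% and 23.6%. The median over the 218 microRNAs of at least 10 RPM was 13.3% and 12.3%. Over all 6 libraries, miR-103-3p had a coefficient of variation of 16.3%, and 36.2% of the 218 had a lower one.

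miR-103-3p belongs to a list of 10 microRNAs often used as references, of which 9 were in the table by the listed name and tested. The table has no miR-191-5p but holds miR-191a-5p (log2 change 0.16, adjusted p = 0.46 in limma), which the counts and medians here leave out. In limma, 1 of the 9 fell, none rose (0 of 9) and 8 missed the threshold, where 6.32% of all 570 were called. The one that fell was miR-16-5p, at 906 ± 29 RPM in wild type libraries, against 538 ± 81 RPM in knockout libraries (SD, n = 3). Its log2 change was -0.76 (SE 0.13; adjusted p = 0.017 in limma). The 9 had a median log2 change of -0.14, or 0.08 with TMM scaling, beside -0.29 and -0.08 for all 218 microRNAs of at least 10 RPM. Among those that missed it, the log2 change of let-7a-5p was -0.14 (adjusted p = 0.34 in limma) and that of miR-423-5p was 0.21 (adjusted p = 0.55).

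The seed of the pair was not ranked against those of other microRNAs. Relatives were searched by the hexamer AGCAGC, bases 1 to 6 of miR-103-3p, which lies partly outside the seed. Those found belong to the miR-15, miR-16 and miR-195 family, known as brakes on cell cycle genes. They hold the same hexamer, in capitals, 1 base further from the 5′ end, and are shown to make that offset visible:
miR-103-3p: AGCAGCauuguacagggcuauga
miR-16-5p: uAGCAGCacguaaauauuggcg
miR-195-5p: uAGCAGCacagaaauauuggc
miR-15b-5p: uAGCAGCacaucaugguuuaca
miR-322-5p: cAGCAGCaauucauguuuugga
miR-497-5p: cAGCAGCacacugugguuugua
These 5 and miR-503-5p were the tested entries, beside the pair, with AGCAGC in the first 8 bases of the RefSeq mature sequence, out of 517 tested entries with such a sequence; the rest of the 570, miR-15a-5p among them, could not be searched.

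In limma, where 6.32% of the 570 were called, 2 of these 6 relatives fell, 0 rose and 4 missed the threshold. The median log2 change of the 6 was -0.55, or -0.35 with TMM scaling. miR-16-5p is described above, and the other that fell, miR-322-5p, stood at 45.0 ± 4.7 RPM in wild type libraries, against 24.2 ± 2.9 RPM in knockout libraries (SD, n = 3). Its log2 change was -0.87 (SE 0.17; adjusted p = 0.025 in limma). Both calls held with TMM scaling, where 8.6% of the 570 were called (adjusted p = 0.022 for each in limma). Leaving out wild type library 2 or knockout library 3 lost the call of miR-16-5p (adjusted p of 0.060 to 0.062), and leaving out any library but wild type 3 lost that of miR-322-5p (0.055 to 0.13), as did the replicate block (0.068). miR-195-5p stood at 304 ± 13 and 247 ± 29 RPM, miR-497-5p at 99.9 ± 22.2 and 76.9 ± 10.6 RPM, miR-15b-5p at 63.9 ± 7.1 and 49.4 ± 7.7 RPM and miR-503-5p at 9.08 ± 1.74 and 5.11 ± 1.50 RPM. All 6 relatives had negative log2 changes, as miR-103-3p did, and miR-107-3p a positive one. A negative sign was the more common one in RPM, with a median log2 change of -0.12 over all 570 tested microRNAs and -0.29 over the 218 of at least 10 RPM. Differences between the pair and its relatives were not tested.

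miR-15a-5p, a member of the family by name, is described apart from the 6 and was added after its values were seen. It stood at 45.3, 43.6 and 32.5 RPM in wild type libraries, against 14.9, 23.0 and 20.7 RPM in knockout libraries, with no overlap. It fell as well, with a log2 change of -1.02 (SE 0.22; adjusted p = 0.038 in limma), or -0.81 with TMM scaling (adjusted p = 0.020). Leaving out any library but wild type 3 lost the call (0.070 to 0.13), as did the replicate block (0.076).

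Marker microRNAs of other cell types moved in the same libraries as the relatives. Both endothelial entries, miR-126a-3p and miR-126a-5p, fell (median log2 change -0.58), and their sum was 25222 to 26982 RPM in wild type libraries, against 19147 to 21287 RPM in knockout libraries. With TMM scaling 1 of the 2 was called. Both smooth muscle entries, miR-143-3p and miR-145-5p, fell (median -0.94, or -0.73 with TMM scaling, where both were called), with sums of 9558 to 14270 RPM against 5576 to 7508 RPM. Each of these 4 calls was lost in 3 to 5 of the 6 fits that left out 1 library. Over all 570 microRNAs limma called 6.32%, or 8.6% with TMM scaling. The other arms of the smooth muscle pair were not on the list. Of these, miR-143-5p fell (log2 change -1.14, adjusted p = 0.016 in limma) and miR-145-3p did not (0.08, adjusted p = 0.71 in limma). Of 4 leukocyte and 4 red blood cell entries none was called in limma (0 of 4 each, median -0.18 and -0.29), and 1 leukocyte entry was called higher with TMM scaling. The part of these cell types in the changes of the relatives or of the pair was not tested.

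**Figure D4:**
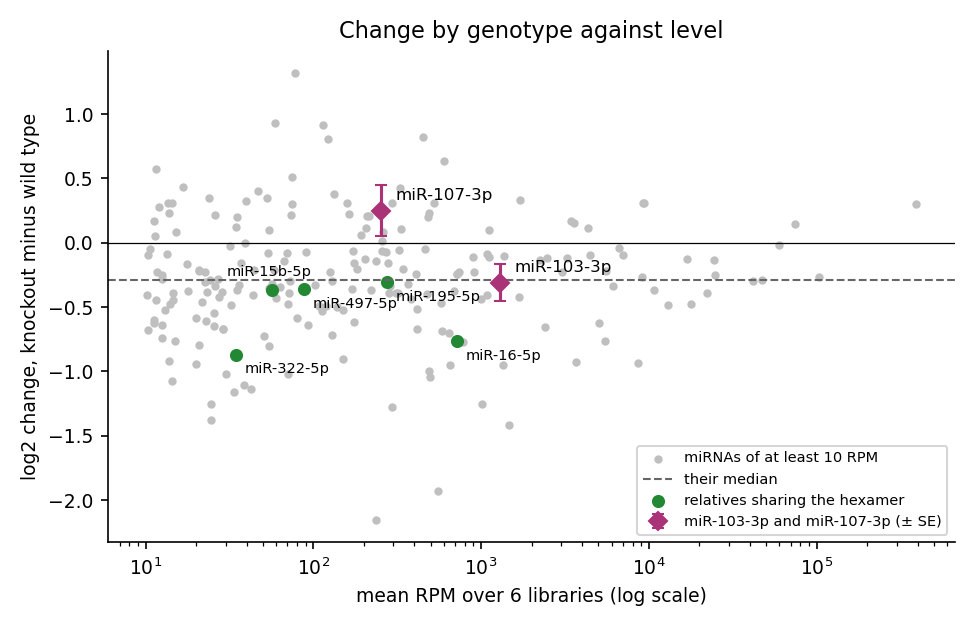
Log2 change by genotype against mean RPM on a log axis for the 218 microRNAs of at least 10 RPM (grey), with their median of -0.29 as a dashed line, the 5 relatives of that level whose RefSeq sequence holds the hexamer (green) and the 2 members (diamonds, ± SE). miR-103-3p sits at the median, miR-107-3p above it, and miR-16-5p and miR-322-5p below it.

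A list of 10 microRNAs known from lipid and glucose metabolism was examined, the process that miR-103 and miR-107 are best known for. In limma, where 6.32% of all 570 were called, 1 of the 10 rose, 1 fell and 8 missed the threshold. The one that rose was miR-375-3p, of pancreatic islets and other endocrine cells (log2 change 1.32, SE 0.19; adjusted p = 0.015 in limma). The one that fell was miR-143-3p, of smooth muscle and fat (log2 change -0.93, SE 0.18; adjusted p = 0.025 in limma). The first call was lost without knockout library 3 (limma, 0.071), and the second when any library except wild type 3 and knockout 2 was left out (0.071 to 0.13). miR-33-5p, which lies in an intron of a sterol regulator gene, stood at 4.14 ± 1.23 and 4.57 ± 1.46 RPM and miR-378a-3p at 8532 ± 3013 and 10080 ± 671 RPM. The median log2 change of the 10 was 0.00, or 0.20 with TMM scaling. With TMM scaling 2 of the 10 were called lower and 1 higher, where 8.6% of the 570 were called. The call added there was miR-27b-3p, with a log2 change of -0.55 (limma adjusted p = 0.037), beside -0.76 (limma adjusted p = 0.056) in unscaled RPM.

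The microRNAs whose profile over the 6 libraries was most like that of miR-103-3p, by Pearson's r of log2(RPM + 1) among the other 217 of at least 10 RPM, were let-7b-5p (r = 0.98), miR-455-3p (0.97), miR-195-5p (0.96), miR-93-5p (0.96) and miR-503-3p (0.96). Those most like miR-107-3p were miR-328a-3p (r = 0.95), let-7d-3p (0.89), miR-425-5p (0.87), miR-152-3p (0.85) and miR-191a-5p (0.77). The lists have no entry in common, and how often 2 such lists share an entry was not counted. The paralogs had an r of 0.33 with each other, which ranked 155 of 217 for miR-103-3p and 50 of 217 for miR-107-3p. These correlations describe 6 libraries that share 2 genotypes and the library totals, and carry no test.

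Other microRNAs that differ by 1 base give a setting for the paralog ratio. Among the 191 of 218 microRNAs of at least 10 RPM that had a RefSeq sequence by name, 13 pairs of mature sequences of equal length differed by 1 base, a set counted after the ratio of miR-103-3p to miR-107-3p was seen. In 6 of the 13 the ratios of the genotypes did not overlap, and the median size of the difference in log2 ratio was 0.14. How often the ratios of other pairs of microRNAs do not overlap was not counted, so the 6 of 13 have no background here. The ratio of miR-27b-3p to miR-27a-3p differed by -0.65, that of miR-103-3p to miR-107-3p by -0.56, that of miR-19b-3p to miR-19a-3p by -0.56 and that of miR-30a-5p to miR-30e-5p by -0.49. The ratio of let-7c-5p to let-7b-5p differed by -0.01 and that of miR-23b-3p to miR-23a-3p by 0.04. The difference between miR-103-3p and miR-107-3p was thus the second in size of the 13, and pairs of the let-7 family share members.

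**Figure D5:**
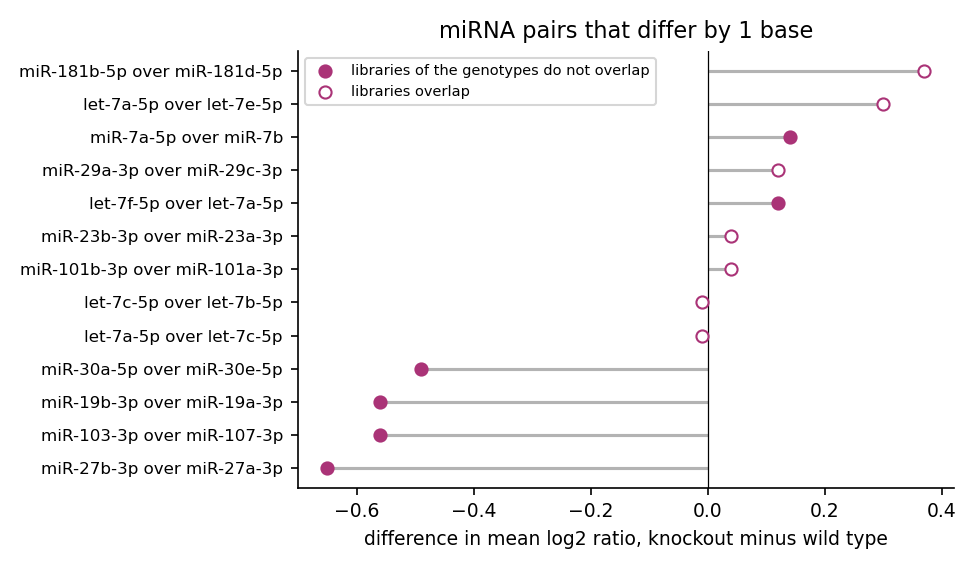
Difference in the mean log2 ratio, knockout minus wild type, of 13 pairs of microRNAs that differ by 1 base, the more abundant member over the less abundant one. Filled points mark the 6 pairs whose ratios do not overlap between genotypes, among them miR-103-3p over miR-107-3p at -0.56.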

How the data were processed

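Small RNA libraries made from 1 μg of total RNA were sequenced as single-end 50 bp reads, per the labels' protocols. The authors deposited 1 table of RPM for 764 rat microRNAs, with their mean RPM per genotype, a log2 fold change and a p-value, per the file headers. The submitters' processing notes name FastQC, BWA, edgeR and rn6 without roles or versions. Not given in the sources used here are the microRNA annotation and how reads matching several microRNAs were counted.

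limma 3.58.1 with an intensity trend (R 4.3.3) was fitted to log2(RPM + 1) of the 570 entries not at 0 in all libraries, on genotype alone, with Benjamini-Hochberg adjustment over all 570 at 0.05. Fold changes on this scale understate those of rare microRNAs. Between 97.8% and 98.9% of the values above 0 lay within 0.0051 RPM of whole reads, against a median of 7.4% to 8.0% at other totals. Each library total was picked as the one at which the reads so obtained add up to it. That sum is therefore no check on the recovery. In wild type library 1 a read is worth 0.0996 RPM, too near 0.1 to be told from rounding in low values, and its total rests on higher ones. edgeR 4.0.16 and DESeq2 1.42.0 were run on those reads as alternatives. Both, and limma with TMM scaling, were tested on simulated data, but limma on unscaled RPM was not. Exact permutation tests, two-sided, compared ratios and shares.

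Named microRNAs were the members, the 5 most alike by correlation and the 3 next above and below each 3p member in level. Also named were the relatives by hexamer and the reference, metabolic and cell type lists. The members and lists were chosen with earlier results of these data known. Of the relatives, reference and metabolic lists, counts cover every tested entry found, miR-191a-5p apart, and values are given for some. Alternatives were 4 scalings, pseudocounts of 0.1 and 5, a mean of at least 10 RPM, the replicate number as a block, both count tools and each library left out. DESeq2 with 1 library left out was added after the data were seen.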

Additional observations from a re-analysis of the deposited data

How the results depend on the processing

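No setting but DESeq2 on recovered reads called either paralog, and that call of miR-107-3p (log2 change 0.50) was made again in 4 of the 6 DESeq2 fits without 1 library, with log2 changes from 0.39 to 0.62 over the 6 (0.53, 0.44 and 0.54 without wild type libraries 1, 2 and 3). In limma without 1 library, the log2 change ranged from -0.40 to -0.17 for miR-103-3p and from 0.09 to 0.44 for miR-107-3p. miR-103-3p changed sign once, to 0.01 in DESeq2 without knockout library 1 (-0.12 to 0.01 over the 6 DESeq2 fits). The cause was not tested. The number of calls over all microRNAs, 36 (32 lower, 4 higher), became 61 in edgeR (35 lower, 26 higher), 72 in DESeq2 (37 lower, 35 higher), 22 with the replicate block and 5 to 26 without 1 library. TMM scaling gave 49 (29 lower, 20 higher). The difference in log2 paralog ratio stayed negative in every alternative run for it. The difference in the share of the pair, -0.022 percentage points, ranged from -0.032 to -0.0078 without 1 library and came to -0.0027 without miR-122-5p in the totals and -9.99e-05 with TMM scaling (exact p = 1.0), which leaves almost none of it. Same-numbered libraries correlated at 0.03, 0.18 and 0.20 in their deviations from the genotype means, and libraries of unlike number at -0.29 to 0.06. Wild type libraries 2 and 3 correlated best with the knockout library of their own number, and wild type library 1 with knockout library 2 (0.06). These values do not settle whether the numbers pair the libraries. With the replicate block, limma gave -0.31 (adjusted p = 0.39) for miR-103-3p and 0.25 (adjusted p = 0.57) for miR-107-3p. The exact sign-flip p of the paralog ratio was 0.25, the smallest possible with 3 pairs. miR-107-5p had no value under the filter of 10 RPM. The 5p arms had 0 to 2 reads per library, too few to resolve a difference, against 1719 or more for each 3p arm. The cause of the low 5p counts was not tested.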
